A study of Mus musculus with 1279 samples.

Results

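The matrix proteases and protease inhibitors described here were 10 genes, Timp1, Timp2, Timp3, Timp4, Mmp2, Mmp3, Mmp14, Adamts1, Adamts5 and Pamr1, of 46517 genes counted in single heart cells of mice. They were taken by name. Each of the 1279 samples was 1 cell, sequenced with Smart-seq2, a plate-based method that reads full-length cDNA and carries no molecular identifiers. All mice were male and 10 to 20 weeks old, and cells positive for CD31, an endothelial surface protein, had been gated out. The C57BL6 cells, from the wild type, were sorted with antibodies and made up 45.4% of the cells. The PdgfrbGFP (28.5%), Cspg4dsRED (12.7%) and Acta2GFP (13.4%) cells came from transgenic reporter mice in which the Pdgfrb, Cspg4 or Acta2 promoter drives a fluorescent protein, and for the Acta2GFP mice the study's methods add elastase to the dissociation. The labels put the cells in clusters 1 to 8, which the study had made from these same counts. The study treats clusters 1 to 5 as fibroblasts (926 cells). Clusters 6 to 8 (353 cells) are called mural cells here.

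Fibroblasts make and turn over the collagens and proteoglycans of the heart wall and valves, and mural cells, the smooth muscle cells and pericytes, wrap its vessels. Matrix metalloproteinases (MMPs) are zinc enzymes made as inactive precursors: Mmp2 is a gelatinase, Mmp3 a stromelysin, and Mmp14 is anchored in the membrane and activates the Mmp2 precursor with Timp2 as a bridge between them. ADAMTS enzymes are secreted relatives, and Adamts1 and Adamts5 cleave the proteoglycans versican and aggrecan. Tissue inhibitors of metalloproteinases (TIMPs) block these enzymes. Timp3 stays bound to the matrix and also inhibits ADAMTS enzymes, and Timp4 is known for its high level in heart tissue. Pamr1 encodes a secreted protein with a domain like that of trypsin.

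Levels were CPM, the reads of a gene per 1000000 reads of all genes, in the summed cells of a strain and cluster. A strain was 1 replicate, because the labels name no animal and cells are not replicates. A sum needed 3 cells or more. Strain, sort and plate could not be told apart for the 3 reporter strains, which were 1 plate each. Values by strain are given below in the order Acta2GFP, C57BL6, Cspg4dsRED, PdgfrbGFP. Cells held 46268 to 1302397 reads (median 274504) and 1626 to 9383 detected genes, with a median of 6388 genes in Acta2GFP and 3358 to 4265 in the other strains. With the clusters of a side summed, marker genes followed the fibroblast and mural split in every strain: Dcn was at 4378 to 6485 CPM in fibroblasts and 212 to 1134 in mural cells, Rgs5 at 12.5 to 149.5 and 2553 to 9423. Cluster 6 carried few pericyte markers, Rgs5 among them, with sums of 108.5, 422.2 and 274.1 CPM in Acta2GFP, C57BL6 and Cspg4dsRED. Smooth muscle markers summed to 9946, 11019 and 13384 CPM there, and fibroblast markers to 3108, 12491 and 3223. Of 7 endothelial markers, Cdh5 was at 0 to 7.6 CPM in both groups, and the list summed to 125.1 to 307.6 CPM in fibroblasts and 142.1 to 785.3 in mural cells, mostly Fabp4 in the latter. The 5 immune markers summed to at most 37.6 CPM in either group, with Ptprc at 0 to 0.3.

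A pair of sums stood apart. The 15 Acta2GFP cells of cluster 8 had a fibroblast marker sum of 3334 CPM, against 960 to 1370 in the other cluster 8 sums, and a pericyte marker sum of 4922 CPM against 16698 to 19522. The 3 C57BL6 cells of cluster 6 had 12491 CPM of fibroblast markers, within the 10590 to 14489 of the fibroblast clusters, together with 11019 CPM of smooth muscle markers. Both are part of the mural sums below, where levels of those 2 strains without them are given beside the results. The 9 PdgfrbGFP cells of cluster 7 were mixed in another way, with 9395 CPM of pericyte markers, against 2729 and 2893 in the other cluster 7 sums, beside 10670 CPM of smooth muscle markers.

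The members lie on 9 chromosomes of the GRCm38 genome. Adamts1 (chr16:85793827-85803113) and Adamts5 (chr16:85856173-85901828) are neighbours on the minus strand. Timp3 (chr10:86300372-86349506, plus strand) shares 1733 exon bases with Syn3, which is read from the other strand, and Timp4 (chr6:115241892-115252205, minus strand) shares 90 with Syn2. The counting is not stated to use strand, so reads within the shared exon bases cannot be assigned to either gene of a pair. Syn3 was counted at 18.4 to 41.9% of the Timp3 count (median 28.5%) in 21 sums of 10 cells or more. The other members are Timp1 (chrX:20870166-20874735, plus), Timp2 (chr11:118301069-118355740, minus), Mmp2 (chr8:92827291-92853420, plus), Mmp3 (chr9:7445822-7455975, plus), Mmp14 (chr14:54431612-54445364, plus) and Pamr1 (chr2:102550012-102643041, plus).

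Across the 21 sums the 2 members most alike were Timp1 and Mmp3 (Pearson r of log2(CPM + 1) 0.93, a description over sums that share plates), and the 250 bases before the start of each are shown for that reason. They are RefSeq sequences of GRCm38.p6, plus strand, at chr9:7445572-7445821 for Mmp3 and chrX:20869916-20870165 for Timp1. Capitals mark TGANTCA, the motif bound by the Fos and Jun proteins of AP-1, which reads the same on both strands.
Mmp3: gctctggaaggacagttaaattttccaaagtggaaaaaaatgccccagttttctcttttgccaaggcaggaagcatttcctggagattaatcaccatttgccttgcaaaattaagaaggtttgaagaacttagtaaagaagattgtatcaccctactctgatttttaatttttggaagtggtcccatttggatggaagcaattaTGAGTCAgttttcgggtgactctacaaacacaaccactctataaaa
Timp1: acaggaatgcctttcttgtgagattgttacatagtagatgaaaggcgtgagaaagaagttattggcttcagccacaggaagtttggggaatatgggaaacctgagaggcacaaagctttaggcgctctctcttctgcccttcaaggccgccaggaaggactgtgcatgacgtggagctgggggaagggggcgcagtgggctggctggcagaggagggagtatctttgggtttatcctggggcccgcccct
The motif lay 46 bases before the Mmp3 start and was found in no other of the 7 members with a promoter sequence at hand, which did not cover Mmp2, Adamts5 and Pamr1. Of all promoters of this length, 6.75% held it. The summed level of 16 early response genes, Fos and Jun among them, had r from -0.02 (Timp3) to 0.60 (Timp2 and Adamts5) with the 10 members over the 21 sums, with Timp1 at 0.52 and Mmp3 at 0.44.

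**Figure D1:**
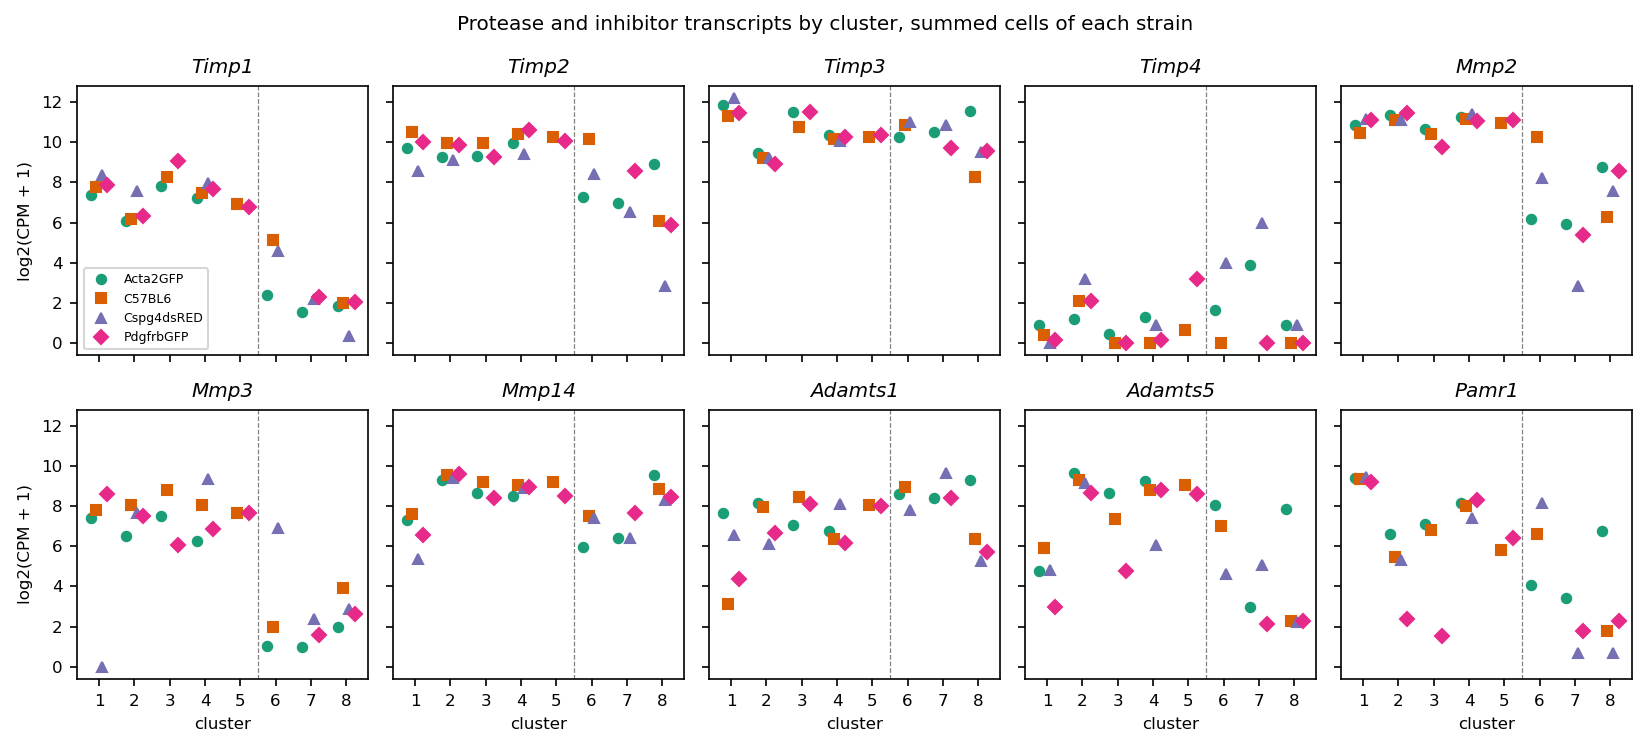
Level of each member in clusters 1 to 8, as log2(CPM + 1) of the summed cells, with 1 point for each strain with 3 cells or more in the cluster. Every sum of clusters 1 to 5 stood above every sum of clusters 7 and 8 for Timp1 and Mmp2, Pamr1 was highest in cluster 1, and Timp3 was read in every cluster.

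Between genes, levels were compared per length, as CPM per kilobase of exon. Mmp2 led in fibroblasts with a mean of 659.8 over strains. The inhibitors Timp2 (236.8), Timp1 (192.0) and Timp3 (170.1) and then Mmp3 (132.6) followed. Mmp14 stood at 83.4, Adamts5 at 36.9, Adamts1 at 33.8, Pamr1 at 31.5 and Timp4 at 0.4. In mural cells Timp3 led with 149.5, ahead of Mmp2 (63.8), Adamts1 (52.8), Mmp14 (50.1) and Timp2 (44.1), and the other 5 members were at 8.2 or less.

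The comparison of fibroblasts with mural cells asked which members mark either side of the stroma. Of the 10 members, 5 were higher in fibroblasts, the inhibitors Timp1 and Timp2 and the proteases Mmp2, Mmp3 and Adamts5, and none was lower (edgeR quasi-likelihood test on summed counts of 4 strains, Benjamini-Hochberg adjusted p under 0.05 over 15117 genes). Over all genes tested, 3.47% were higher and 2.45% lower. The median log2 difference was 2.42 over the members and -0.02 over all genes. The members were chosen with earlier results of these data known. Setting them beside all genes, here and in the comparisons below, is therefore a description and no test of the set. The clusters were made from these counts, these genes included, so the p-values describe how alike the strains were and are no independent test of the split. With the 3 C57BL6 cells of cluster 6 and the 15 Acta2GFP cells of cluster 8 left out, a choice made after the values were seen, 5 members passed again (6.69% of all genes tested, both directions together).

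Timp1, an inhibitor of most MMPs, was at 133.2, 155.3, 239.8 and 153.6 CPM in fibroblasts and at 2.3, 6.7, 8.8 and 3.3 CPM in mural cells. The strains did not overlap, and the log2 difference of 5.01 ± 0.50 (SE) was the largest of the 10 (edgeR adjusted p = 0.000489). Mural Timp1 without the cells that stood apart was 2.2 CPM in Acta2GFP and 3.0 in C57BL6. Timp2 was at 782, 1188, 574 and 1146 CPM in fibroblasts and at 246.2, 199.4, 150.7 and 90.2 in mural cells, again with no overlap (2.45 ± 0.38, edgeR adjusted p = 0.00480). Without the cells that stood apart, the mural Timp2 of Acta2GFP was 129.5 CPM and that of C57BL6 74.5 (3.04 ± 0.37, edgeR adjusted p = 0.00110).

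Mmp2, the protease that Timp2 helps to activate, was even among fibroblasts at 2254, 1986, 2371 and 2284 CPM. Its mural levels were 181.9, 210.4, 128.1 and 339.7 CPM, and the log2 difference was 3.33 ± 0.36 (edgeR adjusted p = 0.000651). Without the cells that stood apart, the mural level was 61.4 CPM in Acta2GFP and 74.3 in C57BL6 (3.81 ± 0.57, edgeR adjusted p = 0.00348). Mmp3 was at 111.7, 271.3, 380.3 and 192.0 CPM in fibroblasts and 1.7, 12.5, 40.3 and 4.8 in mural cells (4.02 ± 0.88, edgeR adjusted p = 0.0239). Its 4 mural levels were spread widely, with Cspg4dsRED, which holds most cluster 6 cells, the highest. Mural Mmp3 without the cells that stood apart was 1.0 CPM in Acta2GFP and 13.8 in C57BL6. The adjusted p (edgeR) of Mmp3 was 0.135 without C57BL6 and 0.101 without PdgfrbGFP.

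Adamts5 was at 525, 458, 259 and 352 CPM in fibroblasts. In mural cells it was at 103.1, 18.6, 24.2 and 3.8 CPM, with Acta2GFP the highest and no overlap with fibroblasts (3.43 ± 0.80, edgeR adjusted p = 0.0328). It passed without Acta2GFP but not without C57BL6 (edgeR adjusted p = 0.167), Cspg4dsRED (0.107) or PdgfrbGFP (0.0623). Without the cells that stood apart, mural Adamts5 was 41.6 CPM in Acta2GFP and 4.3 in C57BL6 (4.40 ± 0.78, edgeR adjusted p = 0.00826).

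Pamr1 and Mmp14 were higher in fibroblasts in 4 of 4 strains without passing. Pamr1 was at 286.1, 135.5, 159.3 and 180.99 CPM in fibroblasts and 42.6, 13.6, 86.7 and 3.7 in mural cells (2.40 ± 0.76, edgeR adjusted p = 0.109). It passed with DESeq2 (adjusted p = 0.0170). Mural Pamr1 without the cells that stood apart was 10.5 CPM in Acta2GFP and 2.4 in C57BL6 (2.89 ± 0.99, edgeR adjusted p = 0.136). Mmp14 was at 411, 595, 526 and 456 CPM in fibroblasts and 297.8, 409.1, 152.1 and 335.8 in mural cells (0.71 ± 0.33, edgeR adjusted p = 0.309). The 2 groups of 4 strains lay side by side without overlap, but close together. They overlapped once the cells that stood apart were left out, with mural Mmp14 at 81.1 CPM in Acta2GFP and 439.8 in C57BL6.

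Timp3 and Adamts1 overlapped between the sides. Timp3 was at 1844, 1177, 1192 and 1328 CPM in fibroblasts and at 1934, 488, 1675 and 772 in mural cells (0.18 ± 0.40, edgeR adjusted p = 0.897). Adamts1 was at 188.5, 211.7, 170.6 and 146.4 CPM in fibroblasts and 438.8, 128.6, 473.9 and 78.7 in mural cells (-0.63 ± 0.50, edgeR adjusted p = 0.637). Both were higher in mural cells in Acta2GFP and Cspg4dsRED and lower in C57BL6 and PdgfrbGFP. Without the cells that stood apart, however, mural Timp3 of Acta2GFP was 1413 CPM, below its fibroblasts, while mural Adamts1 was 347.3 CPM, still above them. In C57BL6 mural Timp3 was then 303.8 CPM and mural Adamts1 78.9. The mural cells of the first pair were mostly of cluster 7 (64.7% and 54.7%), those of the second mostly of cluster 8 (89.2% and 93%).

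Timp4 was the member with the fewest reads. It was at 1.1, 1.0, 3.9 and 3.8 CPM in fibroblasts, and at 8.7 and 35.9 CPM in the mural cells of Acta2GFP and Cspg4dsRED. Its fitted log2 difference (-2.15 ± 1.83, edgeR adjusted p = 0.663) was negative through these 2 strains, while the other 2 were higher in fibroblasts. The sign changed with strain as a block and with limma-voom. Mural Timp4 of Acta2GFP without the cells that stood apart was 12.5 CPM. No mural cell of C57BL6 or PdgfrbGFP had a read of the gene. For counting error alone, a count of 0 leaves room for a share of cells with a read of up to 8.11% and 2.34%, which does not limit the cells that express the gene. In the whole series 15 cells reached 100 CPM, of which 7 were among the 75 Cspg4dsRED cells of cluster 7, the highest at 996 CPM.

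**Figure D2:**
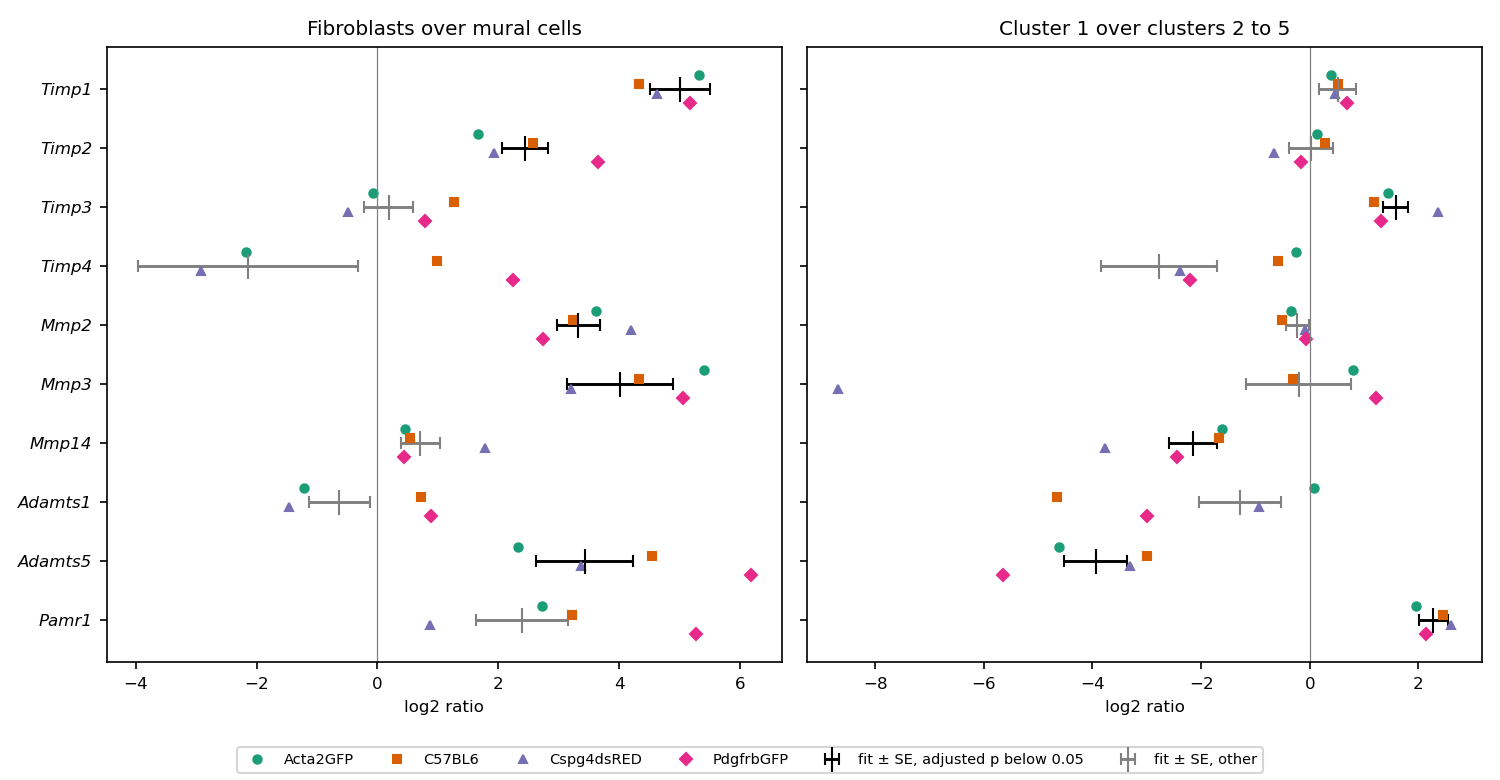
Log2 ratio of each member between fibroblasts and mural cells (left) and between cluster 1 and clusters 2 to 5 (right). Coloured points are strains, as the ratio of CPM with 1 CPM added to both, and bars are the edgeR estimate ± SE, black where the adjusted p was below 0.05. On the left 5 members are black, all to the right of 0, and on the right Timp3 and Pamr1 are black above 0 and Mmp14 and Adamts5 below it. The far left point of Mmp3 is Cspg4dsRED, which had no Mmp3 read in its 3 cells of cluster 1.

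Sums of the early response genes, which react to tissue dissociation, were 11266, 22093, 9611 and 21837 CPM in fibroblasts and 10314, 10027, 12806 and 7161 in mural cells, higher in fibroblasts in 3 of 4 strains. Mitochondrial genes held 1.12, 1.64, 0.992 and 1.53% of the reads in fibroblasts and 1.62, 2.23, 2.01 and 3.05% in mural cells, and the median number of detected genes was 6470, 4187, 5572 and 3674 against 6355, 3600, 4171 and 2832, so mural cells had the higher mitochondrial share and fewer detected genes in 4 of 4 strains. The part of these measures in the differences was not tested.

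In the same comparison 13 genes of the protease lists passed, all higher in fibroblasts. The 3 with the largest difference were Adamts19, an ADAMTS enzyme at a mean of 11.6 ± 5.89 CPM (SD, n = 4 strains) against 0.12 ± 0.07 in mural cells, the cystatin Cst6 at 24.5 ± 5.61 against 0.25 ± 0.36, and the serpin Serpina3n at 286 ± 79.6 against 3.35 ± 1.94 (edgeR adjusted p = 0.00850, 0.0146 and 0.000419). The genes named next were chosen after their values were seen. Of 10 other inhibitors tested, 3 passed, the third being Serpinf1, and of 16 genes of the plasminogen system and other proteases 5 passed, namely Bmp1, Ctsk, Dpp4, Htra3 and Prss12. Htra3, a secreted serine protease, was the most abundant of these at 2530.3 ± 663.6 CPM against 111.7 ± 54.5. Among proteoglycan substrates of the ADAMTS enzymes, Vcan, which encodes versican, was at 233 ± 39.8 CPM against 4.49 ± 2.96 (1 of 2 tested passed). The collagen receptor Mrc2 and the protease scavenger Lrp1 passed (2 of 3 tested), as did Adamtsl2 (1 of 5 ADAMTS-like proteins). None of 9 other MMPs and none of 7 membrane ADAM proteases passed, and Adamts19 was alone among 13 other ADAMTS enzymes. In the 7 comparisons that follow, no gene of these lists passed.

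Among fibroblasts, cluster 1 is the cluster that the study likens to valve interstitial cells. Against clusters 2 to 5 it had more Pamr1 and Timp3 and less Adamts5 and Mmp14, so that 4 of 10 members passed (edgeR on sums of 4 strains, 13201 genes). Over all genes tested 0.561% were higher and 0.773% lower, which makes 1.33% in all and 0.742% with strain as a block. The 3 Cspg4dsRED cells make that strain's cluster 1 sum small.

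Pamr1 was at 681, 641, 701 and 580 CPM in cluster 1, and at 175.5, 116.8, 114.2 and 130.99 CPM in clusters 2 to 5. The cluster 1 levels were close to each other and lay above every other fibroblast sum (2.27 ± 0.26, edgeR adjusted p = 0.00212). Timp3 was at 3635, 2548, 4649 and 2832 CPM against 1342, 1127, 905 and 1139 (1.58 ± 0.23, edgeR adjusted p = 0.00745). Each strain was higher in cluster 1 than in clusters 2 to 5 together. The adjusted p (edgeR), however, was 0.110 without Acta2GFP, 0.0534 without C57BL6 and 0.0541 without Cspg4dsRED. Cluster 3 alone was at 2846, 1705 and 2895 CPM of Timp3 in Acta2GFP, C57BL6 and PdgfrbGFP. Its range overlapped that of cluster 1, and in PdgfrbGFP (7 cells) it stood above cluster 1.

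Adamts5, an enzyme that Timp3 inhibits, was at 26.03, 58.3, 27.1 and 6.9 CPM in cluster 1 and at 664, 473, 278 and 395 in clusters 2 to 5. No strain overlapped (-3.94 ± 0.58, edgeR adjusted p = 0.00784), though without Acta2GFP the edgeR adjusted p was 0.134. Mmp14 was at 155.9, 191.3, 40.7 and 91.8 CPM against 482, 610.1, 566 and 501 (-2.15 ± 0.44, edgeR adjusted p = 0.0416). It did not pass in the fit that blocks on strain (-2.34 ± 0.42, edgeR adjusted p = 0.0717) or without Acta2GFP (0.165), C57BL6 (0.168) or PdgfrbGFP (0.192), although the direction held in 4 of 4 strains.

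The other members did not pass. Timp4, with few reads, was at a mean of 0.33 CPM against 2.66 (-2.78 ± 1.07, edgeR adjusted p = 0.401), lower in 4 of 4 strains without overlap. Mmp2 was at 1853, 1413, 2248 and 2198 CPM in cluster 1 and 2367, 2007, 2382 and 2295 in clusters 2 to 5 (-0.23 ± 0.22, edgeR adjusted p = 0.940). It was lower in cluster 1 in 4 of 4 strains, by little in Cspg4dsRED and PdgfrbGFP. Adamts1 was at 197.6, 7.8, 92.6 and 19.4 CPM against 186.0, 219.2, 177.1 and 162.3 (-1.28 ± 0.76, edgeR adjusted p = 0.773), low in 3 strains but not in Acta2GFP. Timp1 had a difference of 0.51 ± 0.34 and was higher in cluster 1 in 4 of 4 strains. Timp2 (0.02 ± 0.41) and Mmp3 (-0.20 ± 0.97) were higher in 2 of 4, and Mmp3 had no read in Cspg4dsRED. Early response genes summed to 5421, 9385, 7424 and 17060 CPM in cluster 1. In the single clusters 2 to 5 they summed to 10916 to 14605, 17220 to 27471, 8042 to 10320 and 17012 to 28348 CPM, above cluster 1 in every cluster of 3 strains and in all but cluster 4 of PdgfrbGFP. Mural markers summed to 729.8, 151.3, 397.4 and 125.5 CPM in cluster 1. In the single clusters 2 to 5 they were at 84.9 to 326.2, 42.5 to 148.5, 85.4 to 295.0 and 60.1 to 99.95, lower in 4 of 4 strains. The part of both lists was not tested.

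Within C57BL6 the 16 cluster 1 cells of one plate and the 3 of another differed. Adamts5 was at 8.7 CPM on the first and 352 on the second, Mmp14 at 79.4 and 855, and Pamr1 at 700.4 and 288. The 3 cells differed among themselves too, with Mmp14 at 6.4, 509 and 1570 CPM. Clusters 1 to 5 had 3 cells or more on both plates. Adamts5 was lower on the first plate in 5 of 5, with log2 ratios of -5.19 to -1.04, while those of Mmp2 had a median size of 0.08.

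The other fibroblast clusters were compared with each other, cluster 1 left out. No member passed in any of the 4 comparisons, and neither did any other gene (0% of 13870 genes for cluster 2, 0% of 14803 for cluster 3, 0% of 14104 for cluster 4 and 0% of 16214 for cluster 5, edgeR). At an unadjusted p under 0.05 there were 641, 895, 670 and 630 genes, and DESeq2 called 1.22, 2.61, 1.3 and 0.765% of the genes. The levels that follow are a description unless a test is given.

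Cluster 2 had the lowest mean Timp3 of all clusters, at 708.0, 595.5, 601.5 and 485.3 CPM. In clusters 3 to 5 together it was at 1831, 1303, 1122 and 1343, with no overlap (-1.20 ± 0.20, edgeR adjusted p = 0.158). DESeq2 and limma-voom both called this gene. Mmp14 was highest in cluster 2, at 631, 740.1, 666 and 779 CPM against 367, 567, 495 and 415 (0.65 ± 0.21, edgeR adjusted p = 0.685), and its range there lay above that of every other cluster but for the 745 CPM of the Acta2GFP cells of cluster 8. Adamts5 had its highest mean in cluster 2 as well, 596.05 ± 159.4 CPM (SD, n = 4).

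Cluster 3, present with 3 cells or more in 3 strains, had the highest Timp1 mean, with 227.9, 306.5 and 525.4 CPM in Acta2GFP, C57BL6 and PdgfrbGFP against 107.3, 124.9 and 130.7 in clusters 2, 4 and 5 (1.70 ± 0.47, edgeR adjusted p = 0.364). Its Timp3 was at 2846, 1705 and 2895 CPM against 1089, 1021 and 1078 (1.39 ± 0.26, edgeR adjusted p = 0.259). Blocking on strain, Timp3 passed as 1 of 35 genes (1.33 ± 0.15, edgeR adjusted p = 0.00429). Mmp2 was lowest here among fibroblasts, with a mean of 1279 ± 382 CPM (SD, n = 3). The PdgfrbGFP sum of cluster 3 held 7 cells.

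In cluster 4 Pamr1 was at 281.0, 253.7, 169.9 and 310.8 CPM, and in clusters 2, 3 and 5 at 103.7, 62.7, 60.9 and 52.9. The groups did not overlap (1.87 ± 0.31, edgeR adjusted p = 0.0882), and DESeq2 and limma-voom called it. Cluster 5, with 2 strains, had 260 and 254 CPM of Adamts1 in C57BL6 and PdgfrbGFP (0.90 ± 0.36 against clusters 2 to 4, edgeR adjusted p = 1.000), next to 79.98 and 70.7 in cluster 4, 246.9 and 99.8 in cluster 2, and 347.5 and 275.7 in cluster 3, which stood above cluster 5 in both strains.

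Among mural cells, cluster 7 carried smooth muscle markers, with pericyte markers beside them in PdgfrbGFP, and cluster 8 pericyte markers. Between them no member of 9 tested passed in 3 strains, beside 0.194% of 11867 genes (23 genes, 817 at an unadjusted p under 0.05, 82 with strain as a block and 380 with DESeq2). Mmp2 was at 59.8, 6.1 and 40.7 CPM in cluster 7 of Acta2GFP, Cspg4dsRED and PdgfrbGFP and at 430.3, 185.7 and 372.6 in cluster 8 (3.15 ± 0.92, edgeR adjusted p = 0.269). The C57BL6 cells of cluster 8, with no cluster 7 sum to set beside them, were at 76.1 CPM of Mmp2 and 453 of Mmp14. Mmp14 was at 84.2, 83.6 and 199.7 against 745, 313 and 351 (1.82 ± 0.69, edgeR adjusted p = 0.522). Both were higher in cluster 8 in 3 of 3 strains without overlap among these, but the Acta2GFP levels of cluster 8 come from the 15 cells that stood apart. Without Acta2GFP the log2 difference was 3.34 ± 1.38 for Mmp2 (edgeR adjusted p = 0.573) and 1.00 ± 1.03 for Mmp14 (edgeR adjusted p = 1.000), from 2 strains. Without PdgfrbGFP it was 3.30 ± 1.18 (edgeR adjusted p = 0.373) and 2.72 ± 0.61 (edgeR adjusted p = 0.312). Fibroblast markers, too, summed to more in cluster 8 (3334, 960 and 1370 CPM) than in cluster 7 (777, 309 and 552) in these strains, and their part was not tested. Few cells of cluster 8 carried most of both genes: 19 of 196 held 78.3% of the CPM of Mmp2 (median 47.3 CPM) and 60.3% of that of Mmp14 (median 13.1 CPM).

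Adamts1 was the reverse in Cspg4dsRED and PdgfrbGFP, at 790.2 and 333 CPM in cluster 7 and 37.9 and 50.8 in cluster 8. In Acta2GFP, whose cluster 8 cells stood apart, it was at 340.3 in cluster 7 and 627 in cluster 8. The log2 difference of cluster 8 from cluster 7 was -1.03 ± 0.94 (edgeR adjusted p = 0.978) with all 3 strains and -3.79 ± 1.01 (edgeR adjusted p = 0.0229) without Acta2GFP, from 2 strains, of which PdgfrbGFP has the mixed cluster 7 sum. It was -0.67 ± 1.22 (edgeR adjusted p = 0.933) without PdgfrbGFP. C57BL6 had 81.5 CPM in cluster 8 and 1 cell in cluster 7. Early response sums were 12375, 20667 and 19480 CPM in cluster 7 of Acta2GFP, Cspg4dsRED and PdgfrbGFP and 7191, 3365 and 5807 in cluster 8, higher in cluster 7 in 3 of 3 strains, and their part was not tested.

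Cluster 6 had 39 cells, of which 33 were Cspg4dsRED and 3 each Acta2GFP and C57BL6. Against clusters 7 and 8 no member passed, beside 0.033% of 12117 genes (4 genes, 695 at an unadjusted p under 0.05, 0.883% with strain as a block and 341 genes with DESeq2). In the 33 Cspg4dsRED cells Timp2 was at 341 CPM, Mmp2 at 295, Pamr1 at 282 and Mmp3 at 120.9, next to 67.1, 54.8, 0.61 and 4.8 in clusters 7 and 8 of the same strain. Cluster 8 alone had Mmp2 at 185.7 CPM. The 3 Acta2GFP cells went the other way for these 4 genes, with 154.9, 71.8, 15.7 and 1.1 CPM next to 255.3, 192.8, 45.3 and 1.7, and so did Mmp3 in C57BL6 (2.9 next to 13.8 CPM). The fibroblast markers summed to 3223 CPM in the 33 Cspg4dsRED cells and to 308.6 in cluster 7 of the strain, and their part in these levels was not tested. Timp2 reached 100 CPM in 25 of the 33 cells and Pamr1 in 18. Mmp3 rested on few cells, since 3 of the 33 held 95.6% of its CPM and its median was 0, and for Mmp2 3 cells held 54.6% with a median of 10.2 CPM. Timp3 was at 2023 CPM there and reached 100 CPM in all 39 cells of the cluster. The 3 C57BL6 cells, which carried fibroblast markers, had Mmp2 at 1226 and Timp2 at 1131 CPM.

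A level in a sum can come from many cells or from few. Of 926 fibroblasts, 93.2% had 100 CPM or more of Mmp2, 85.9% of Timp2 and 78.5% of Timp3, a limit chosen after the values were seen. Mmp14 reached it in 56.7%, Adamts5 in 51.4%, Timp1 in 32.4%, Adamts1 in 29.7% and Pamr1 in 20.0%. These shares pool the strains, and the order changed between them: Timp1 was at 45.8, 31.4, 69.2 and 23.7% and Adamts5 at 63.3, 51.7, 46.2 and 45.3%. Mmp3 reached it in 15.4%, with a median of 4.0 CPM and a highest cell of 9540 CPM.

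The 92 fibroblasts with the most Mmp3 held 89.8% of the CPM of that gene over all fibroblasts. The same number of cells held 75.5% for Pamr1, 54.2% for Timp1 and 22.9% for Mmp2. Fibroblasts with 100 CPM of Mmp3 were found in every strain, 20 of 120, 87 of 544, 8 of 26 and 28 of 236. They were 10.96 to 20.1% of each of the 5 fibroblast clusters. PCR copies of one molecule are counted as separate reads here, so intervals and limits cover counting error only.

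**Figure D3:**
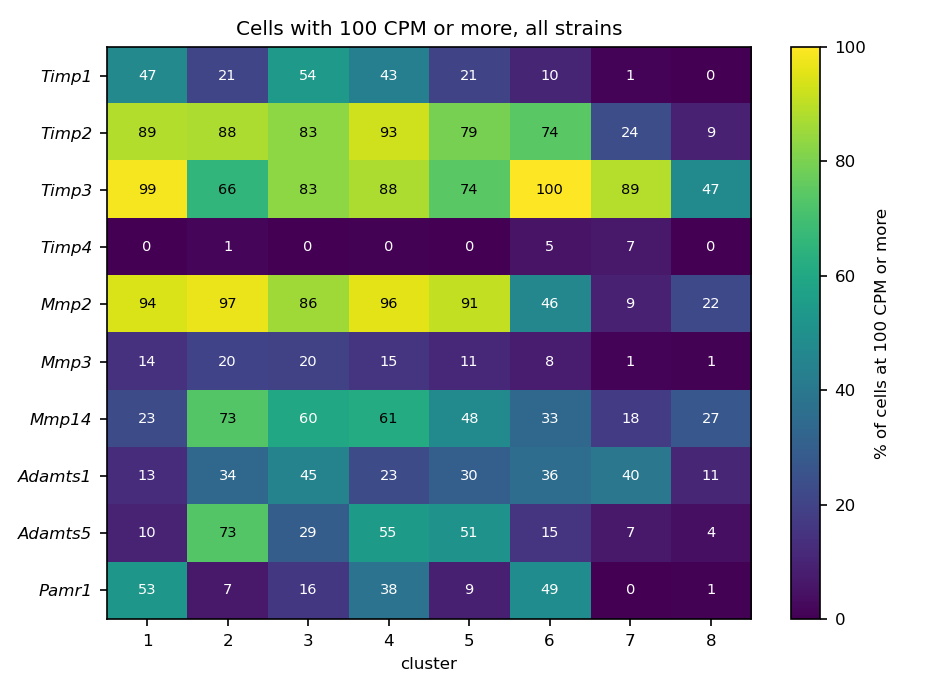
Share of cells with 100 CPM or more of each member in clusters 1 to 8, all strains pooled, in percent, as a number and a colour. Timp2 and Mmp2 exceed 79% in each of clusters 1 to 5, Mmp3 stays near 20% or below, Timp1 is at 0 in cluster 8, and Pamr1 is above 35% in clusters 1, 4 and 6.

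Other members, too, differed between clusters in the share of high cells. Pamr1 reached 100 CPM in 52.9% of cluster 1 and 38.2% of cluster 4, but in 6.85% of cluster 2 and 8.90% of cluster 5. Adamts5 was at that level in 73.1% of cluster 2 and 10.0% of cluster 1. Timp1 had a read in 72 of 196 pericyte-marked cells of cluster 8, yet the highest of them had 19.7 CPM.

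Adamts1 and Adamts5, the neighbours on chromosome 16, differed in which of them was read in more cells. After each cell was thinned to 50000 reads, 42.5% of cluster 2 cells had Adamts5 alone and 7.31% Adamts1 alone, with 42.9% holding both. In cluster 7 the order was the opposite, with 44.4% holding Adamts1 alone and 5.98% Adamts5 alone. The share holding both was close to the product of the single shares, 42.9% next to 42.9% in cluster 2 and 11.1% next to 9.50% in cluster 7. Over the 21 sums the pair had r = 0.30.

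Mmp2, Mmp14 and Timp2, which act together at the cell surface, were all read in 81.3% of 219 thinned cells of cluster 2, strains pooled. The share was 75.1% in cluster 4, 68.8% in cluster 3, 58.6% in cluster 5 and 41.4% in cluster 1. It was 28.2% in clusters 6 and 8 and 13.7% in cluster 7. Strains differed widely, and the order of the pooled shares did not hold in each. In PdgfrbGFP the share was 14.3% in cluster 3 (7 cells), 22.7% in cluster 1 and 45.7% in cluster 5, while in Acta2GFP it was 61.5% in cluster 1. It was 3.45 to 86.7% over 4 strains in cluster 8, and 36.4, 2.70 and 22.2% in cluster 7 of Acta2GFP, Cspg4dsRED and PdgfrbGFP. The product of the 3 single shares was 81.4% in cluster 2 and 40.4% in cluster 1, and in cluster 7 it was 37.3, 2.31 and 17.6% in these strains.

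The summed TIMPs were set against the summed MMPs, per length. The ratio of the 4 TIMPs to Mmp2, Mmp3 and Mmp14 was 0.690 ± 0.085 (SD, n = 4 strains) in fibroblasts and 1.89 ± 1.25 in mural cells. By strain it was 0.722, 0.744, 0.563 and 0.733 in fibroblasts and 2.91, 0.860, 3.03 and 0.761 in mural cells. Without the cells that stood apart the mural ratio of C57BL6 was 0.578, below its fibroblasts, and that of Acta2GFP was 6.53. The mural side was thus higher in 4 of 4 strains with those cells and in 3 of 4 without them, by little in PdgfrbGFP. Cluster 2 had the lowest ratio, 0.413 ± 0.070, with a range of 0.347 to 0.493. Cluster 7 had the highest, 8.42 ± 5.26 (n = 3), where Timp3 made up 50.1 to 85.6% of the TIMP sum. Clusters 1 and 3 had 1.35 ± 0.28 and 1.81 ± 1.17, clusters 4 and 5 had 0.733 ± 0.210 and 0.716 ± 0.065 (n = 2), cluster 6 had 3.17 ± 2.56 (n = 3) and cluster 8 had 0.993 ± 0.652. Single sums carried some of these means, which were 1.13 in cluster 3 without the 7 PdgfrbGFP cells and 1.70 in cluster 6 without the 3 Acta2GFP cells. The mean was 5.46 in cluster 7 without Cspg4dsRED. In cluster 8 it was 0.672 without the 15 Acta2GFP cells that stood apart, near the fibroblast mean. This is a ratio of RNA reads and holds nothing on enzyme or inhibitor activity.

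**Figure D4:**
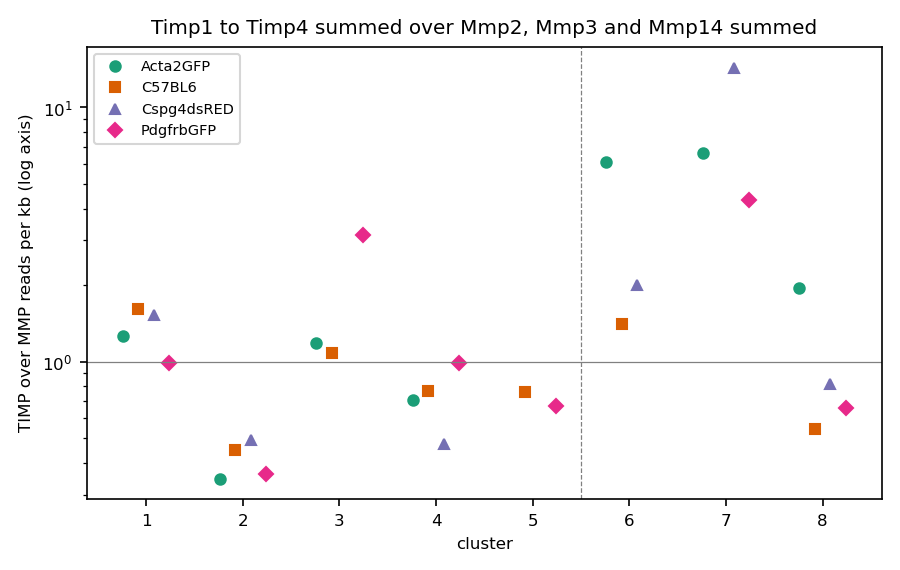
Ratio of the summed levels of Timp1 to Timp4 over those of Mmp2, Mmp3 and Mmp14, in CPM per kilobase of exon, for each strain with 3 cells or more in a cluster. The 4 strains of cluster 2 lie between 0.347 and 0.493 and the 3 of cluster 7 between 4.33 and 14.4.

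The genes whose levels ran most like each member over the 21 sums were sought among 10326 genes, as a description, since the sums share plates and cell types. Mmp2 ran with Col1a1 (r = 0.96), which encodes a chain of the main collagen of the heart, and Cd34 (0.95). Timp1 ran with Myoc (0.97), Twist2 (0.95) and Sox9 (0.95), and Timp2 with Txndc5 (0.96). Adamts5 ran with Deptor (0.92) and Msc (0.91), Pamr1 with Xpnpep1 (0.89) and Mfap4 (0.89), and Mmp14 with Rftn1 (0.91) and Scn7a (0.89).

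For Timp3 the nearest gene was Syn3 (0.96), whose exons overlap it, and the next was Ssh3 at 0.82. Adamts1 (Kdm2a, 0.85) and Timp4 (Sgca, a muscle sarcoglycan gene, 0.85) had no gene above 0.90. The nearest to Mmp3 was Timp1 itself.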

How the data were processed

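The members and gene lists were chosen with earlier results of these data known. The authors trimmed reads with trim galore, mapped them to GRCm38 with TopHat2, removed what their methods call doublets with samtools, and deposited raw counts per gene from featureCounts, with cells filtered on depth and genes. The annotation release and strand setting are not given in the sources used here. The table of counts matched every cell. Its 92 ERCC spike-in rows (1.82% of reads) were left out of library sizes. Gene positions came from a GRCm38 annotation.

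Counts were summed per strain and side and tested with edgeR 4.0.16 (TMM, filterByExpr with a minimum count of 10, quasi-likelihood F test, Benjamini-Hochberg, threshold 0.05, R 4.3.3), after tests on simulated data. SE was the log2 difference over the root of F. The study compared single cells with monocle, which treats cells as replicates, so that test was not used. Alternatives were DESeq2 1.42.0, its size factors, limma-voom (limma 3.58.1), no filter, a minimum of 10 cells, thinning to 50000 reads per cell, a joint fit, strain as a block and leaving out each strain. Both sides of a strain came from the same mice or plates, so strains paired the sums, whose deviations correlated at 0.0227 to 0.271. The main fit held no term for strain, so its p-values measure the spread between strains and leave this pairing out. Fold limits and intervals cover counting error. Named by rule from other lists were up to 3 genes per comparison and direction with the largest difference, and for each member up to 3 most alike genes. The further list genes named between fibroblasts and mural cells fell outside this rule and were chosen after their values were seen. No RefSeq protein sequences were used.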

Additional observations from a re-analysis of the deposited data

Results flagged for a closer look

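In groups of 4 strains, a strain was singled out where its gap to the nearest other strain, over the whole range, exceeded Dixon's critical value at the 95% level. Of 60 groups 6 were, and chance alone gives about 1 in 20. Of these, 5 were the 15 Acta2GFP cells of cluster 8. Timp2 was at 487 CPM there (6.15 to 65.9 in the other strains), Timp3 at 3010 CPM (307 to 766), Adamts1 at 627 CPM (37.9 to 81.5), Adamts5 at 230.0 CPM (3.75 to 3.93) and Pamr1 at 108.9 CPM (0.60 to 3.83). The other was Timp1 in cluster 2, at 188 CPM in the 8 Cspg4dsRED cells and 65.9 to 78.03 CPM elsewhere.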

How the results depend on the processing

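Log2 differences were followed for all members between fibroblasts and mural cells and in cluster 1, and elsewhere for members with an unadjusted p under 0.05 and Adamts1 in cluster 8 against 7. Of these, under all alternatives, 375 kept direction and side of the threshold, 14 passed only under the alternative, 15 no longer passed and 12 changed sign, and the causes were not tested except that fewer strains or cells enter some fits. The number of members passing ran from 3 to 5 between fibroblasts and mural cells, 1 to 3 for cluster 1 and 0 to 1 for cluster 8 against 7 on leaving out a strain (3 and 3 without C57BL6 or PdgfrbGFP, 1 and 2 without Acta2GFP or C57BL6 in cluster 1). It was 6 between fibroblasts and mural cells with DESeq2, 6 after thinning and 7 in the joint fit. It was 1 for cluster 8 against 7 (Mmp2) and 2 for cluster 6 (Timp1, Mmp2) in the joint fit, 1 for cluster 2 with DESeq2 and 1 with limma-voom (Timp3), 1 for cluster 3 without a filter and 1 with strain as a block (Timp3), and 1 for cluster 4 with DESeq2, 1 with limma-voom and 1 after thinning (Pamr1). Signs changed for Timp3 between fibroblasts and mural cells without C57BL6 (-0.0063, up to 0.39 without another strain), for Timp4 there (-2.15 as reported) with strain as a block (0.78) and limma-voom (0.91), and for Mmp3 in cluster 1 without Cspg4dsRED or with a minimum of 10 cells (0.58 each, down to -0.96 without another strain). Timp2 in cluster 1 stayed near 0: -0.073 without a filter, -0.094 with the block, -0.070 with limma-voom, -0.11 thinned, -0.10 in the joint fit and -0.15 to 0.10 without a strain. Pamr1 in cluster 1 did not pass in the joint fit (2.73, edgeR adjusted p = 0.0640), and Mmp14 passed between fibroblasts and mural cells there (edgeR adjusted p = 0.0267). The share of all genes called was 5.93% for fibroblasts against mural cells (2.58 to 12.7% under alternatives, 2.66 to 3.91% without a strain), 1.33% for cluster 1 (0.53 to 5.22%, 0.201 to 0.748%), 0.194% for cluster 8 (0 to 3.2%, 0 to 0.987%), 0.033% for cluster 6 (0.0495 to 2.81%, 0 to 0.495%), and 0% for clusters 2 (up to 1.22%), 3 (up to 2.61%), 4 (up to 1.3%) and 5 (up to 0.765%). Leaving out cluster 6, or the cells that stood apart, both chosen after seeing the data, left 5 members passing between fibroblasts and mural cells. DESeq2 size factors moved the median of all genes by over 0.1 in 3 comparisons, for cluster 8 (0.18 to 0.04), cluster 6 (-0.32 to -0.17) and cluster 3 (-0.13 to 0.04). For cluster 5 no strain could be left out, since it had 2. The block changed no other member's call. Sums of 3 cells (cluster 1 in Cspg4dsRED, cluster 6 in Acta2GFP and C57BL6) entered with fewer cells than any other sum.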

Other observations

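Among fibroblasts of a strain, cells with 100 CPM or more of Mmp3 were set beside the rest for Timp1. Timp1 reached 100 CPM in 55% of the Mmp3-high and 44% of the other cells in Acta2GFP, 39.1% and 29.98% in C57BL6, 87.5% and 61.1% in Cspg4dsRED (7 of 8 and 11 of 18 cells), and 17.9% and 24.5% in PdgfrbGFP. The share was higher in 3 strains and lower in 1, and no test was made.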
